A study of Homo sapiens with 15 samples.

Results

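The genes described here are 40 genes of the apoptosis machinery: the BCL2 family, the inhibitor of apoptosis proteins (IAPs) with their antagonist, the apoptosome, the caspases, the death receptors with their adaptors, and PAWR. They were picked by gene symbol from a list of names, by a rule that uses no measured value, though the list was drawn up with earlier results of these data known. They are 40 of the 60510 genes with an identifier in one table of RNA-seq values and, as far as they are listed there, 35 of the 17769 in the other. BCL2A1, BIK, CASP1, FAS and TNFRSF10D are the 5 that were not analysed in the smaller table. In the larger one these 5 had between 0 and 7 reads in each library and did not reach the minimum for testing, which was a log2 CPM of -1 in at least 3 libraries. CPM is the number of reads on a gene scaled to the size of the library. The other 35 were tested in both tables. By their usual role, 12 of the 40 were set apart as anti-apoptotic and 25 as pro-apoptotic, and BCL2L12, CASP1 and CASP4 were given no side.

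All libraries came from K562, a BCR-ABL1+ chronic myeloid leukemia cell line. The knockout table holds 3 groups of 3 libraries. EV cells carry an empty vector and are wild type for both cytosolic isoforms of the chaperone HSP90. HSP90α-KO cells carry Cas9 with a guide against HSP90AA1, and HSP90β-KO cells carry Cas9 with a guide against HSP90AB1. The vectors were lentiviral, and cells were selected by a fluorescent marker. The study names clones of the K562 knockouts, but its RNA-seq methods do not say which clone was sequenced. The resistance table holds 3 libraries of parental cells, which were kept in the solvent DMSO, and 3 libraries of PUHr cells. PUHr cells were grown for a long time in rising amounts of the HSP90 inhibitor PU-H71, and individual resistant clones were picked. A knockout and its clone cannot be told apart, nor can resistance and its clone. Each table was normalized by the authors on its own, so levels were compared within a table only. The study calls its replicates independent, but neither it nor the labels say that they were separate cultures, so p-values measure the spread between these libraries.

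Apoptosis runs along an intrinsic and an extrinsic route. In the intrinsic route BCL2 and its anti-apoptotic relatives hold the pore formers BAX and BAK1 in check, BH3-only proteins release that hold, and cytochrome c leaves the mitochondria to assemble the apoptosome with APAF1 and caspase 9. In the extrinsic route death receptors recruit FADD and caspase 8 or caspase 10, and the FLICE-like inhibitory protein encoded by CFLAR competes for the same adaptor. IAPs restrain caspases or the signalling complexes around them. BCR-ABL1 signalling is known to keep leukemia cells alive in part through BCL2L1 and MCL1.

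The knockouts were checked first. The guides match coding exons of their targets on GRCh38, at chr14:102086342-102086361 for HSP90AA1 and at chr6:44248749-44248768 for HSP90AB1, both on the minus strand. They are shown because they define the groups, with the adjacent PAM in capitals.
HSP90AA1 guide: gacccaagaccaaccgatggAGG
HSP90AB1 guide: cattagagatcaactcccgaAGG
HSP90AA1 stood at 92.6, 88.0 and 90.8 CPM in HSP90α-KO against 716, 683 and 713 CPM in EV. HSP90AB1 stood at 1940, 1910 and 1890 CPM in HSP90β-KO against 2820, 2780 and 2810 CPM in EV, so the targeted transcript was lower but still abundant there. In PUHr HSP90AA1 stood at 1560, 1590 and 1550 CPM against 1720, 1720 and 1700 CPM in parental cells. The log2 fold change by limma was -0.13 (adjusted p = 4.7e-05). The study reports a copy number gain of HSP90AA1 in PUHr and, on renewed treatment, more HSP90α protein than in parental cells. Within the 40 apoptosis loci, the best match of the HSP90AA1 guide beside a PAM had 4 to 10 mismatches of 20 bases, and that of the HSP90AB1 guide 6 to 9.

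Each library held between 19594381 and 26216730 reads on genes, so 1 read was worth 0.0381 to 0.0518 CPM. K562 identity was read from 10 erythroid markers, of which 9 passed 1 CPM in at least 1 library of each table. The knockout table listed 9 of the 10. Their sums there were 666 to 708 CPM in EV, 570 to 615 CPM in HSP90α-KO and 589 to 591 CPM in HSP90β-KO. The defining T cell genes CD3D, CD3E and CD3G, the monocyte gene LYZ and the fibroblast genes COL1A1 and COL1A2 also passed 1 CPM in at least 1 table. The summed T cell markers were 4.36 to 5.49 CPM in HSP90α-KO, 8.61 to 9.64 CPM in EV and 17.4 to 19.5 CPM in HSP90β-KO. Of the 5 monocyte markers only LYZ was listed in the knockout table, at 57.6 to 63.6, 39.2 to 43.9 and 29.8 to 31.8 CPM in the same order. Of the 5 fibroblast markers only COL1A1 was listed there, at 1.03 to 2.83 CPM. The resistance table listed all 5 markers of the T cell, monocyte and fibroblast lists. In the resistance table the sums were lower in PUHr than in parental cells for these 4 lists, at 8.11 to 8.84 against 11.0 CPM for T cells, 23.4 to 25.3 against 28.3 to 30.9 CPM for monocytes, 5.42 to 6.01 against 9.82 to 10.1 CPM for fibroblasts and 1440 to 1500 against 1640 to 1680 CPM for erythroid genes. The part of these levels in the results was not tested. In bulk samples fewer cells of a type and less RNA per cell cannot be told apart.

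Below, a gene differed where its adjusted p was under 0.05 and was changed where its log2 fold change was also above 1 or below -1. In HSP90α-KO against EV, 13 of the 35 tested genes were higher and 9 lower, and 13 did not pass the test. Of all genes tested, 27.5% were higher and 26.6% lower. BOK rose, and BCL2 and PAWR fell, beyond the fold threshold, which makes 3 changed genes of 35 where 10.3% of all genes were changed. In HSP90β-KO against EV, 7 of the 35 were higher and 9 lower, where 17.2% of all genes were higher and 17.2% lower. BIRC3 was the only changed gene of 35, where 4.48% of all genes were changed. In PUHr against parental cells, 12 were higher and 11 lower, where 25.6% of all genes were higher and 25.8% lower. BCL2 and PAWR rose and BIRC3 and TNFRSF10A fell beyond the threshold, 4 changed genes of 35 beside 10.1% of all genes. Between the knockouts directly, 27 of 35 differed beside 59.9% of all genes, and BOK, CFLAR, BIRC3 and PAWR were changed, 4 of 35 beside 12.7%. Both comparisons with EV share the same EV libraries.

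Neither side of the machinery moved as a block. In HSP90α-KO 4 of the 10 tested anti-apoptotic genes were higher and 3 lower, with a median log2 fold change of -0.03, and 7 of the 23 tested pro-apoptotic genes were higher and 6 lower, with a median of -0.02. The median over all genes was -0.01. In HSP90β-KO the anti-apoptotic genes split into 3 higher and 3 lower with a median of 0.02, and the pro-apoptotic genes into 4 higher and 5 lower with a median of 0.10, beside 0.00 over all genes. In PUHr 5 anti-apoptotic genes were higher and 4 lower with a median of 0.09, and 7 pro-apoptotic genes were higher and 7 lower with a median of 0.12, beside 0.00 over all genes. The plot of fold changes by gene shows this spread around 0 on both sides.

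**Figure D1:**
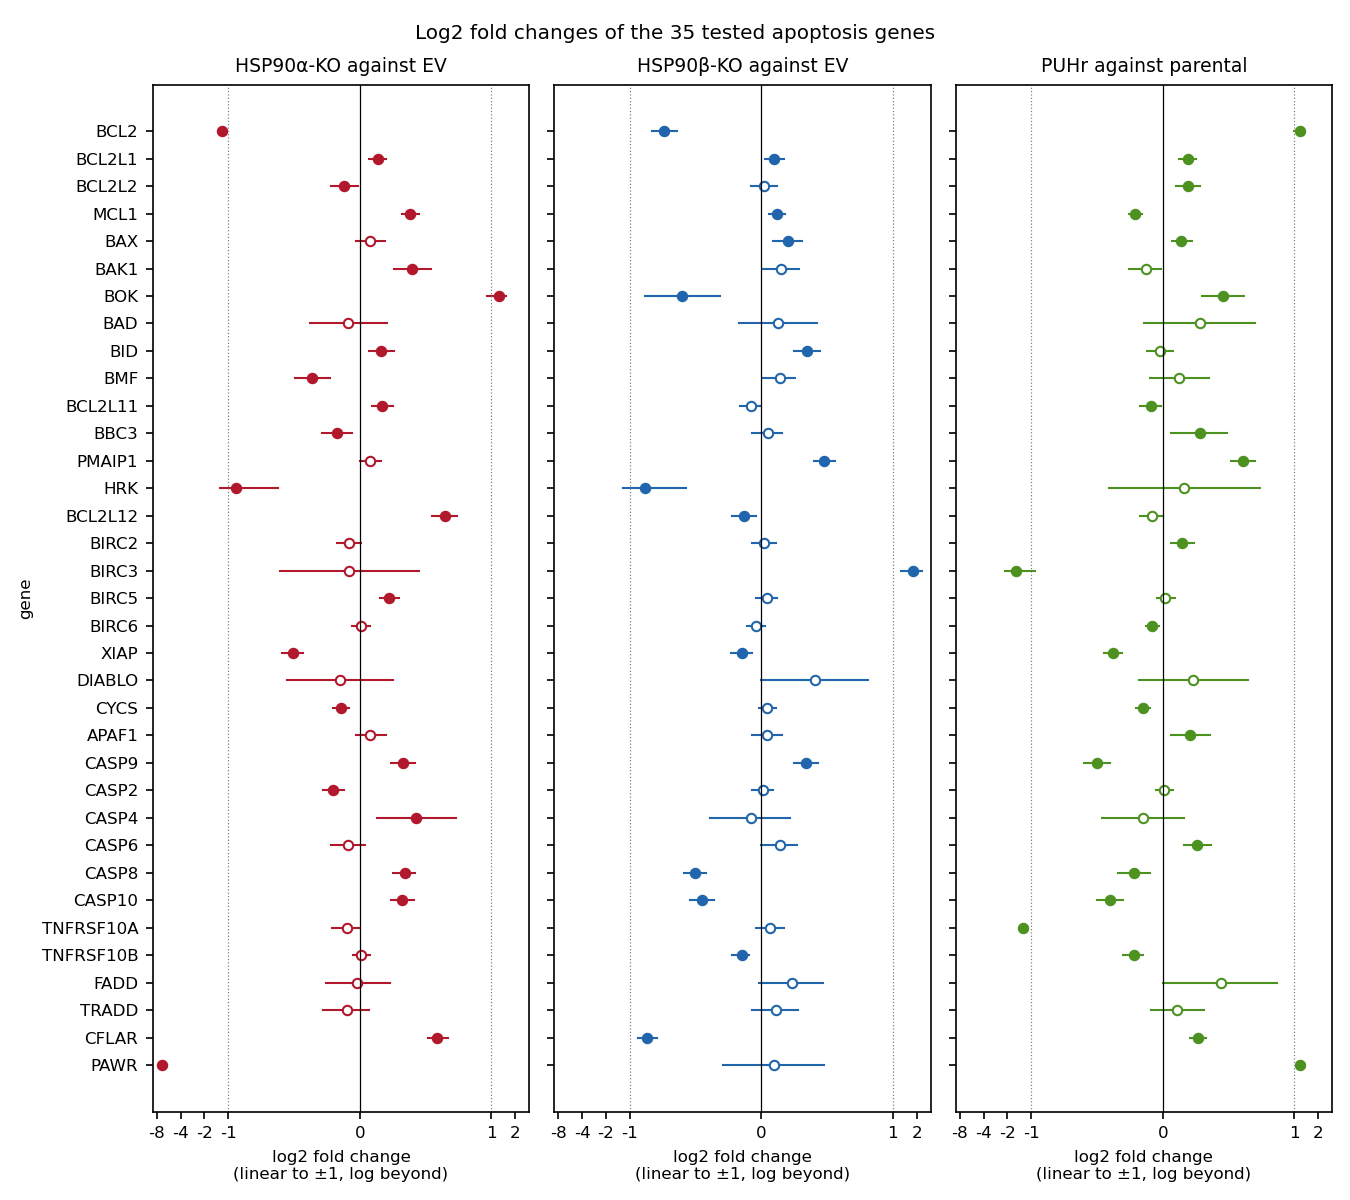
Log2 fold change (horizontal axis, linear to 1 and -1 and logarithmic beyond) of each of the 35 tested apoptosis genes in 3 comparisons, with 3 libraries per group. Lines are 95% confidence intervals from limma, filled points have an adjusted p under 0.05, open points do not, and dotted lines mark 1 and -1. PAWR in HSP90α-KO lies farthest from 0, at -6.85.

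Among the anti-apoptotic BCL2 proteins, BCL2 itself moved most in all 3 comparisons, down in both knockouts and up in PUHr. BCL2 (ENSG00000171791, chr18:63123346-63320128, minus strand) encodes the founding member of the family, which binds BH3-only proteins and pore formers at the mitochondrial surface. Its level was 63.0, 59.3 and 60.1 CPM in EV, 26.4, 25.8 and 26.6 CPM in HSP90α-KO, and 35, 37.1 and 37.1 CPM in HSP90β-KO. All 3 groups were fully apart, and HSP90α-KO was lowest. The log2 fold change was -1.21 (SE 0.0464, adjusted p = 8.7e-18) in HSP90α-KO and -0.74 (SE 0.0464, adjusted p = 1e-12) in HSP90β-KO, and HSP90α-KO lay below HSP90β-KO by a log2 difference of -0.47 (95% interval -0.56 to -0.37, adjusted p = 1.8e-09). In the resistance table BCL2 stood at 7.36, 8.47 and 8.82 CPM in parental cells and at 18.8, 19 and 17.7 CPM in PUHr. Every PUHr library exceeded every parental library, with a log2 fold change of 1.17 (95% interval 1.00 to 1.34, adjusted p = 1.3e-08).

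BCL2L1 and MCL1, the relatives on which BCR-ABL1+ cells are known to depend, moved by far less. BCL2L1, which encodes BCL-XL, stood at 144, 148 and 144 CPM in EV, 163, 164 and 153 CPM in HSP90α-KO and 157, 153 and 157 CPM in HSP90β-KO. It stood at 123, 122 and 124 CPM in parental cells and 145, 134 and 142 CPM in PUHr. It was higher than its control in each comparison, with log2 fold changes of 0.14 (adjusted p = 0.0012), 0.10 (adjusted p = 0.021) and 0.19 (adjusted p = 0.00016). In HSP90β-KO the call was lost with each library centred on its median (adjusted p = 0.19), without the intensity trend (0.095) and without EV replicate 1 or 3 or HSP90β-KO replicate 1 or 3 (0.057 to 0.078). Exons of BCL2L1 lie to 41.3% over the opposite-strand gene ABALON, and the strand setting of the counting is not given in the sources used here.

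MCL1, a short-lived protein that binds BH3-only proteins, stood at 275, 268 and 284 CPM in EV and rose to 357, 353 and 370 CPM in HSP90α-KO. In HSP90β-KO it stood at 305, 293 and 301 CPM. HSP90α-KO lay above the other groups in every library, with a log2 fold change of 0.38 (95% interval 0.32 to 0.45, adjusted p = 3.1e-11) against EV and of 0.26 (adjusted p = 2.8e-08) against HSP90β-KO. In HSP90β-KO the difference from EV was 0.12 (adjusted p = 0.0027). Centring on the median gave an adjusted p of 0.06 for it, and a fit without the intensity trend 0.052, out of a range of 0.00015 to 0.06. PUHr went the other way, from 359, 359 and 360 CPM in parental cells to 307, 318 and 308 CPM, a log2 fold change of -0.21 (adjusted p = 2.6e-06). BCL2L2, a further relative, moved by -0.12 (adjusted p = 0.049), 0.02 (adjusted p = 0.82) and 0.19 (adjusted p = 0.0018) on the log2 scale. Its first call was lost on leaving out any of 7 libraries, with an adjusted p of up to 0.18. Its exons lie to 16.8% over the readthrough gene BCL2L2-PABPN1 on the same strand. BCL2A1 had 2, 3 and 4 reads in parental cells and 0, 0 and 1 in PUHr and was not tested.

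Set on a per-length scale, in CPM per kb of annotated exon, MCL1 and BCL2L1 were far more abundant than BCL2 in both tables. The mean level in EV was 44.3 for MCL1, 34.7 for BCL2L1, 6.79 for BCL2L2 and 4.82 for BCL2. In parental cells the same means were 57.7, 29.3, 6.70 and 0.651, and in PUHr BCL2 reached 1.47. BCL2 therefore ranked 25 of 35 in EV and 31 of 40 in both parental cells and PUHr, while CYCS, the gene for cytochrome c, ranked highest in EV, parental cells and PUHr, at 48.3, 81.1 and 73.0.

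The pore formers split. BAX, which inserts into the outer mitochondrial membrane when freed, stood at 31.2, 35.1 and 32.2 CPM in EV, 35.9, 35.4 and 32.9 CPM in HSP90α-KO and 36.2, 39.3 and 37.4 CPM in HSP90β-KO. Its groups overlapped in HSP90α-KO (log2 fold change 0.08, adjusted p = 0.2) and not in HSP90β-KO (0.20, adjusted p = 0.005). In the resistance table BAX rose from 45.2, 45.5 and 45.9 CPM to 51.4, 49.7 and 50 CPM (log2 fold change 0.14, adjusted p = 0.004). BAK1, the constitutively membrane-bound pore former, stood at 16.4, 14.7 and 14.2 CPM in EV and rose to 20.4, 20 and 19.4 CPM in HSP90α-KO (0.40, adjusted p = 1.5e-05). It stood at 15.8, 17.5 and 16.8 CPM in HSP90β-KO, overlapping EV (0.15, adjusted p = 0.096, and 0.032 without EV replicate 1). In parental cells it stood at 26.0, 25 and 25.5 CPM and in PUHr at 24.0, 21.4 and 24.4 CPM (-0.13, adjusted p = 0.064, and 0.043 without PUHr replicate 3).

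BOK, a pore former that is not restrained by BCL2 in the usual way, moved in opposite directions in the knockouts. BOK (ENSG00000176720, chr2:241551424-241574131, plus strand) stood at 2.62, 2.94 and 2.82 CPM in EV, 6.83, 7.36 and 6.16 CPM in HSP90α-KO and 1.67, 1.96 and 1.82 CPM in HSP90β-KO. These levels rest on 55 to 74, 120 to 142 and 35 to 46 reads per library. No group overlapped another. The log2 fold change was 1.25 (95% interval 0.97 to 1.53, adjusted p = 1.6e-08) in HSP90α-KO and -0.60 (95% interval -0.88 to -0.31, adjusted p = 0.0012) in HSP90β-KO, and the direct difference between the knockouts was 1.85 (adjusted p = 6.3e-12). Adding 5 CPM to each value, which shrinks the folds of low genes, brought the rise in HSP90α-KO to 0.60, the fall in HSP90β-KO to -0.19 and the difference between the knockouts to 0.79. In PUHr BOK rose from 11.9, 10.8 and 10.1 CPM to 14.8, 15.6 and 14.7 CPM (log2 fold change 0.46, adjusted p = 0.00012).

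The BH3-only and BH3-like genes BAD, BID, BMF, BCL2L11, BBC3, PMAIP1 and HRK were tested, and none was changed by limma in any comparison. In HSP90α-KO 2 of the 7 were higher and 3 lower, with HRK at -0.94 (adjusted p = 1e-05) and BMF at -0.36 (adjusted p = 1.7e-05) moving most. HRK encodes Harakiri, known from neurons, and BMF encodes a BH3-only protein tethered to the cytoskeleton. In HSP90β-KO 2 were higher and 1 lower, with HRK at -0.88 (adjusted p = 4.9e-05) and PMAIP1 at 0.48 (adjusted p = 7.5e-11). PMAIP1 encodes NOXA, the BH3-only partner of MCL1. HRK was low, with 91 to 117 reads per library in EV, 40 to 53 in HSP90α-KO and 44 to 67 in HSP90β-KO, and both knockouts lay below EV in every library. Without HSP90α-KO replicate 2 the fall of HRK passed the fold threshold, at -1.07.

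In PUHr PMAIP1 again rose, by 0.61 (adjusted p = 1.1e-08), from 40, 43.8 and 43.1 CPM to 63.8, 65.1 and 64.7 CPM. In the knockout table it stood at 75, 69.5 and 71.4 CPM in EV, 75.2, 78.0 and 75.1 CPM in HSP90α-KO and 99, 102 and 100 CPM in HSP90β-KO. In HSP90α-KO the log2 fold change was 0.08 (adjusted p = 0.076), which passed without EV replicate 1 (0.11, adjusted p = 0.025). HSP90α-KO lay below HSP90β-KO by a log2 difference of -0.40 (adjusted p = 7.2e-10). BBC3, which encodes PUMA, was the other BH3-only gene that rose in PUHr, by 0.28 (adjusted p = 0.033). It stood at 16.2, 22.4 and 16.7 CPM there against 14.2, 16.0 and 15.0 CPM, and the call was lost without PUHr replicate 2 (0.13, adjusted p = 0.14) and without parental replicate 1 or 3 (adjusted p = 0.13 and 0.086). BAD had the same difference of 0.28 without passing (adjusted p = 0.26). Exons of BAD lie to 23.7% over GPR137 on the opposite strand. BIK had 7, 1 and 0 reads in parental cells and 1, 1 and 0 in PUHr. BCL2L12, whose role is not settled, rose by 0.65 in HSP90α-KO (adjusted p = 2.4e-12), fell by 0.13 in HSP90β-KO (adjusted p = 0.025) and moved by -0.08 in PUHr (adjusted p = 0.095, and 0.0058 without PUHr replicate 2). The fall in HSP90β-KO was lost without EV replicate 2 or 3 or HSP90β-KO replicate 1 or 3, with an adjusted p of 0.058 to 0.13. Its exons lie to 25.9% over IRF3 on the opposite strand.

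**Figure D2:**
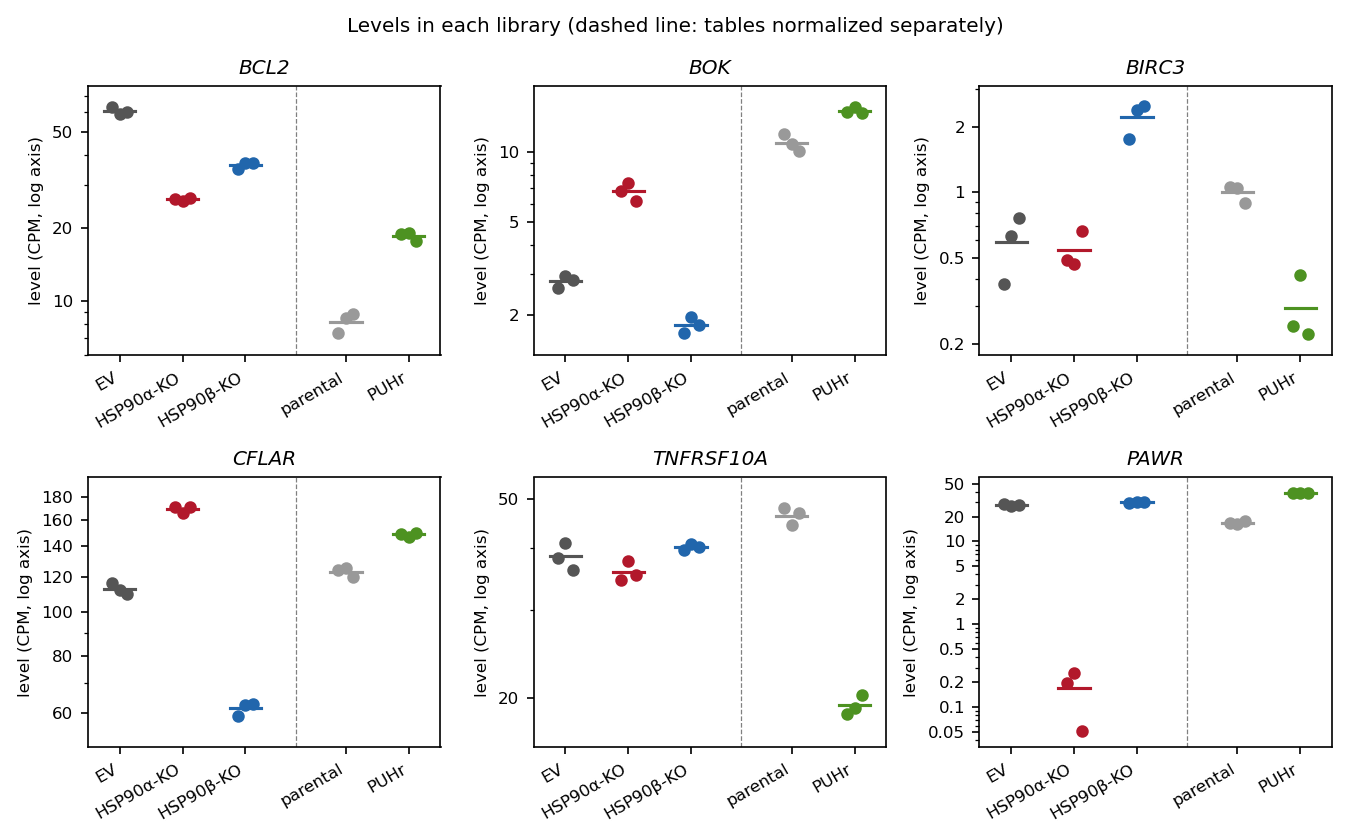
Level in CPM (vertical axis, log scale) of the 6 genes changed in any comparison in each of the 15 libraries, as points, with the group mean as a bar. The dashed line parts the knockout table from the resistance table, which were normalized separately. BCL2 is lower in both knockouts than in EV and higher in PUHr than in parental cells, and PAWR is near the level of single reads in HSP90α-KO.

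Of the IAPs, BIRC3 was changed in HSP90β-KO and, in the opposite direction, in PUHr. BIRC3 (ENSG00000023445, chr11:102317484-102339403, plus strand) encodes cIAP2, a ubiquitin ligase in TNF receptor signalling whose transcription is a textbook target of NF-kB. It was a low gene, at 0.380, 0.627 and 0.762 CPM in EV, 0.488, 0.466 and 0.667 CPM in HSP90α-KO and 1.76, 2.39 and 2.49 CPM in HSP90β-KO. In reads these were 8, 13 and 20, then 10, 9 and 13, then 37, 56 and 63. HSP90α-KO overlapped EV, and all 3 HSP90β-KO libraries stood above both. The log2 fold change in HSP90β-KO was 1.79 (95% interval 1.26 to 2.32, adjusted p = 3.5e-06), and that in HSP90α-KO was -0.08 (adjusted p = 0.82).

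In the resistance table BIRC3 went from 25, 25 and 19 reads in parental cells to 6, 10 and 5 in PUHr, or from 1.06, 1.05 and 0.891 CPM to 0.241, 0.418 and 0.222 CPM. The groups were apart, and the log2 fold change was -1.55 (95% interval -2.13 to -0.97, adjusted p = 0.00022). The gene reached the minimum for testing in all 3 parental libraries and in 1 of PUHr, so it was admitted through the group in which it was high. Both calls rest on few reads. Adding 5 CPM brought the log2 fold change to 0.37 in HSP90β-KO and to -0.18 in PUHr, which ended both calls of a changed gene, and adding 1 CPM also ended that in PUHr, at -0.63. The adjusted p stayed at or under 0.019 in all alternatives in which the gene was tested. With a minimum mean log2 CPM of 1 it was not. Pooled over libraries, the ratio of HSP90β-KO to EV was 3.78, with an exact 95% counting interval of 2.67 to 5.47. BIRC2, which encodes cIAP1 and lies beside BIRC3 on chromosome 11, moved by 0.02 in HSP90β-KO (adjusted p = 0.78) and by 0.15 in PUHr (adjusted p = 0.0064, but 0.13 with no filter on low values).

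The 250 bases before the start of BIRC3 are printed because the gene moved in opposite directions in HSP90β-KO and PUHr and they hold 2 matches to the NF-kB consensus, in capitals. The sequence is from RefSeq on GRCh38.p14, chr11:102317234-102317483, plus strand.
BIRC3 upstream: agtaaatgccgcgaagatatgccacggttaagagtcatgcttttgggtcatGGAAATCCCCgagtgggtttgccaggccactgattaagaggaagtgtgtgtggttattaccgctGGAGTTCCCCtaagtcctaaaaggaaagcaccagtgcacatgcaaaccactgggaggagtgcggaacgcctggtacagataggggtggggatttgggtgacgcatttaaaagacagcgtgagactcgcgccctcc
Promoters of 30 of the 40 genes were found in RefSeq, 55 in all. The NF-kB consensus, read on both strands, was in 7 of the 55 promoters of 300 bases (12.7%), those of BIRC3, BIRC6, BMF, CASP2, CFLAR, FAS and HRK, and in 11.3% of all 35116 promoters. GAANNTTC, the core of the heat shock element, was in 5 of the 55 (9.09%), at BAK1, BMF, CASP2, CASP8 and CFLAR, and in 6.77% of all. TTCNNNGAA, the core bound by STAT factors, was in 2 of the 55 (3.64%), at BCL2A1 and CASP8, and in 7.66% of all. These are matches of letters and say nothing of binding.

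XIAP, which inhibits caspases directly, was lower in all 3 comparisons. It stood at 101, 97.2 and 103 CPM in EV, 67.1, 72.3 and 71.5 CPM in HSP90α-KO and 87.2, 93.6 and 89.8 CPM in HSP90β-KO. It fell from 72.0, 73.2 and 72.7 CPM in parental cells to 55.9, 56.1 and 55.7 CPM in PUHr. The groups were apart each time, with log2 fold changes of -0.51 (adjusted p = 2.2e-11), -0.15 (adjusted p = 0.0039) and -0.38 (adjusted p = 1.7e-07). BIRC5, which encodes survivin and acts mainly in mitosis, stood at 85.9, 87.2 and 89.7 CPM in EV, 98.9, 108 and 100 CPM in HSP90α-KO and 89.5, 89.6 and 91.3 CPM in HSP90β-KO. It rose in HSP90α-KO (0.22, adjusted p = 1.5e-05) and did not pass in HSP90β-KO (0.04, 95% interval -0.04 to 0.12, adjusted p = 0.43). It stood at 149, 151 and 148 CPM in parental cells and 159, 148 and 149 CPM in PUHr, where the groups overlapped (0.02, 95% interval -0.04 to 0.09, adjusted p = 0.54). The very large IAP gene BIRC6 moved by no more than 0.08 in size in any comparison with a control.

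In the apoptosome group, CASP9, the initiator caspase, rose in both knockouts, by 0.33 (adjusted p = 3.7e-07) and 0.34 (adjusted p = 5.3e-07), and fell in PUHr by 0.50 (adjusted p = 4e-07). APAF1, its scaffold, passed in PUHr alone of the comparisons with a control, at 0.21 (adjusted p = 0.019), a call lost without parental replicate 1 (adjusted p = 0.11) or PUHr replicate 1 (adjusted p = 0.051). CYCS was lower in HSP90α-KO (-0.14, adjusted p = 0.0004) and in PUHr (-0.15, adjusted p = 0.00011). With quantile normalization the latter was -0.05 (adjusted p = 0.057). DIABLO, whose protein SMAC displaces caspases from IAPs, moved by -0.15, 0.41 and 0.23 and passed in none of these comparisons, but it passed in HSP90β-KO without HSP90β-KO replicate 3 (0.65, adjusted p = 0.013). It is uncertain, since 31.5% of its exon length is shared with a gene model on the same strand.

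Of the 4 death receptor genes among the 40, TNFRSF10A was changed, in PUHr. TNFRSF10A (ENSG00000104689) encodes the TRAIL receptor DR4. It stood at 47.9, 44.3 and 46.9 CPM in parental cells and at 18.6, 19.1 and 20.3 CPM in PUHr. The highest PUHr library lay far below the lowest parental library, with a log2 fold change of -1.26 (95% interval -1.37 to -1.15, adjusted p = 4e-11), which stayed changed under all 16 alternatives. In the knockout table it stood at 38.2, 40.9 and 36.1 CPM in EV, 34.4, 37.6 and 35.2 CPM in HSP90α-KO and 39.5, 40.7 and 40.1 CPM in HSP90β-KO. Those groups overlapped EV, with log2 fold changes of -0.10 (adjusted p = 0.093) and 0.07 (adjusted p = 0.35). The former passed without EV replicate 3 (adjusted p = 0.034) or HSP90α-KO replicate 2 (adjusted p = 0.043).

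TNFRSF10B, the gene for the other signalling TRAIL receptor DR5, fell in PUHr by 0.22 (adjusted p = 7.8e-05) and in HSP90β-KO by 0.15 (adjusted p = 0.00023). FAS had 0 to 4 reads and the decoy receptor gene TNFRSF10D 0 to 3 reads per library of the resistance table. The adaptor genes FADD and TRADD passed in no comparison with a control. FADD stood at 3.82, 7.48 and 3.87 CPM in PUHr against 3.68, 3.52 and 3.38 CPM in parental cells, so its fold change of 0.44 (adjusted p = 0.087) rested mainly on PUHr replicate 2. It passed without PUHr replicate 1 (adjusted p = 0.027) or 3 (adjusted p = 0.042), and FADD passed in HSP90β-KO without EV replicate 2 (0.34, adjusted p = 0.039). Exons of FADD lie to 59.2% over an opposite-strand gene model.

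CFLAR, CASP10 and CASP8 act together at the death receptor and lie side by side on chromosome 2, from 201116154 to 201361836 on GRCh38. Against EV, all 3 rose in HSP90α-KO, and all 3 fell in HSP90β-KO. CFLAR (ENSG00000003402) stood at 116, 112 and 110 CPM in EV, 171, 166 and 171 CPM in HSP90α-KO and 59.2, 62.6 and 62.9 CPM in HSP90β-KO. No group overlapped another. The log2 fold changes were 0.59 (95% interval 0.52 to 0.67, adjusted p = 1.4e-13) and -0.87 (95% interval -0.94 to -0.79, adjusted p = 1.8e-16), and the direct difference between the knockouts was 1.46 (95% interval 1.39 to 1.53, adjusted p = 3.2e-22). In PUHr CFLAR rose from 124, 125 and 120 CPM to 149, 147 and 150 CPM (0.27, adjusted p = 1.3e-06).

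CASP8, the initiator caspase of the death receptors, rose by 0.34 in HSP90α-KO (adjusted p = 1.6e-07) and fell by 0.50 in HSP90β-KO (adjusted p = 2.3e-10). CASP10, its close relative, rose by 0.32 (adjusted p = 2.7e-07) and fell by 0.45 (adjusted p = 1.9e-09). In PUHr these caspases moved against CFLAR, with CASP8 falling by 0.22 (adjusted p = 0.0045, but 0.18 with no filter on low values) and CASP10 by 0.40 (adjusted p = 5.2e-06). Of the other caspases, CASP4 rose by 0.43 in HSP90α-KO (adjusted p = 0.016, and 0.061 without EV replicate 1) and CASP6 by 0.26 in PUHr (adjusted p = 0.00037). CASP2 fell by 0.20 in HSP90α-KO (adjusted p = 0.00014), from 95.6 to 98.1 CPM in EV to 81.5 to 89.1 CPM. CASP1 had 0 to 4 reads per library in the resistance table.

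The level of genes beside a member was then read off, since K562 clones can differ in copy number. In HSP90β-KO, 128 of the 137 other tested genes within 20 Mb of the start of CFLAR were lower than in EV, with a median log2 fold change of -0.55 and a middle 50% from -0.70 to -0.44. CASP8 at -0.50 and CASP10 at -0.45 lay near that median, and CFLAR at -0.87 lay below it. The same 137 genes had a median of 0.01 in HSP90α-KO, with 74 higher and 63 lower, and 145 genes had a median of -0.08 in PUHr. Nearer by, the 20 nearest genes of CFLAR, CASP10 and CASP8 had medians of 0.17, 0.14 and 0.17 in HSP90α-KO. Of each 20, 15, 14 and 15 were higher there. In HSP90β-KO the medians of these sets were -0.52, -0.57 and -0.60. Each set includes the other genes of the cluster. BOK lies on the same chromosome arm, and its 16 nearest genes had a median of -0.51 in HSP90β-KO and of 0.04 in HSP90α-KO. Of those 16, 15 were lower in HSP90β-KO. Copy number was not analysed here, and its part in these values was not tested. The study ran SNP arrays on HSP90β-KO and PUHr cells. For these cells its text describes the HSP90AA1 locus and gives no result for the region around CFLAR.

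**Figure D3:**
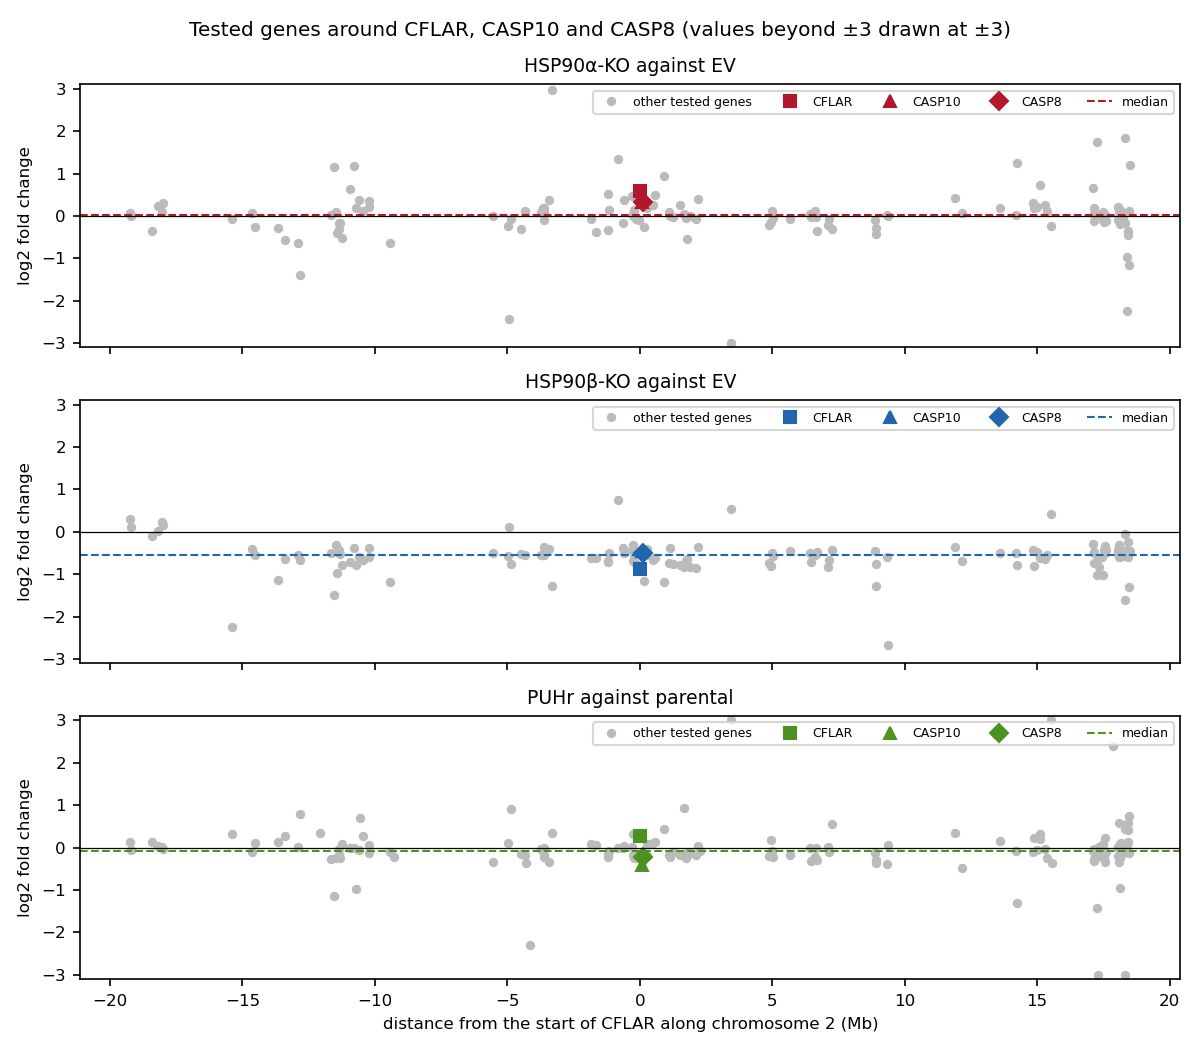
Log2 fold change (vertical axis) of tested genes by distance in Mb from the start of CFLAR (horizontal axis) in 3 comparisons, 1 panel each, with the dashed line at the median of the genes shown. In HSP90β-KO most genes lie near -0.55 together with CASP8 and CASP10, and in HSP90α-KO they lie around 0.01 while CFLAR, CASP10 and CASP8 lie above 0.

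A similar pattern was seen at XIAP, CASP9 and MCL1. The 20 nearest genes of XIAP on chromosome X were all lower in HSP90α-KO, with a median of -0.70 beside -0.51 for XIAP, while their median was 0.03 in HSP90β-KO and -0.23 in PUHr. The 20 nearest genes of CASP9 on chromosome 1 were all lower in PUHr, with a median of -0.40 beside -0.50 for CASP9. Of the 20 nearest genes of MCL1, 18 were lower in PUHr, with a median of -0.18 beside -0.21 for MCL1. Beside the members changed against a control the medians were nearer 0. The median was -0.10 beside BCL2 and 0.06 beside PAWR in HSP90α-KO, 0.02 beside BIRC3 in HSP90β-KO, and 0.10, 0.14, 0.07 and 0.07 beside BCL2, PAWR, BIRC3 and TNFRSF10A in PUHr.

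**Figure D4:**
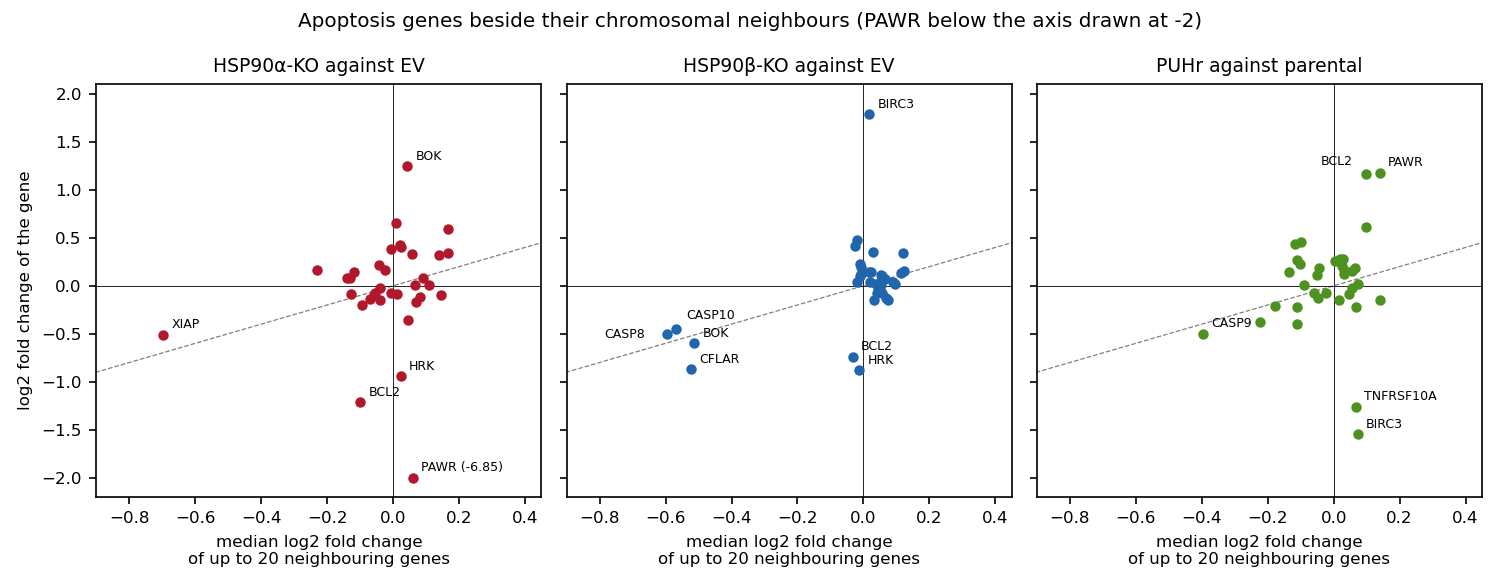
Log2 fold change of each tested apoptosis gene (vertical axis) against the median log2 fold change of up to 20 neighbouring genes (horizontal axis), with equality as a dashed line. CASP8, CASP10, CFLAR and BOK in HSP90β-KO, XIAP in HSP90α-KO and CASP9 in PUHr lie beside neighbours that were also lower, and PAWR in HSP90α-KO, at -6.85, is drawn at the lower edge.

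The largest difference of any member was that of PAWR, which was almost lost in HSP90α-KO. PAWR (ENSG00000177425, chr12:79574979-79690964, minus strand) encodes PAR-4, a pro-apoptotic leucine zipper protein known to sensitize cells to apoptosis and to inhibit atypical protein kinase C. It stood at 28.5, 27.1 and 27.9 CPM in EV, 0.195, 0.259 and 0.0513 CPM in HSP90α-KO and 29.4, 30.3 and 29.7 CPM in HSP90β-KO. The EV libraries held 1893 reads in all, and the HSP90α-KO libraries 4, 5 and 1. Pooled over libraries PAWR was 170-fold lower in HSP90α-KO, with an exact 95% counting interval of 92.1 to 354, and the log2 fold change was -6.85 (adjusted p = 5.9e-21). PAWR reached the minimum for testing in all 3 EV and all 3 HSP90β-KO libraries and in 0 of HSP90α-KO. It was thus admitted through the groups in which it was high. Its log2 fold change in HSP90α-KO was the lowest of all 17039 genes tested in that comparison. Its size depends on the constant added to low values, from -7.40 to -2.67 over all alternatives. In HSP90β-KO every library lay above every EV library, and the log2 fold change was 0.10 (95% interval -0.29 to 0.48, adjusted p = 0.73). Its SE of 0.187 is shared with the HSP90α-KO libraries of few reads, and the adjusted p ran from 0.07 to 0.84 over all alternatives.

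In PUHr PAWR rose, from 16.6, 16.4 and 17.6 CPM in parental cells to 38.0, 38.6 and 38.3 CPM. The groups were far apart, and the log2 fold change was 1.18 (95% interval 1.07 to 1.28, adjusted p = 6.2e-11). PAWR and BCL2 thus fell together in HSP90α-KO and rose together in PUHr, while in HSP90β-KO BCL2 fell and PAWR did not pass the test. The best match of the HSP90AA1 guide beside a PAM within the PAWR locus had 7 mismatches.

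The bases before the start of PAWR are printed because the gene was nearly silent in 1 group only. They are dense in CG dinucleotides, in capitals, with 36 in 250 bases, where the median over all RefSeq promoters was 11 and 4.85% had as many. The sequence lies at chr12:79690965-79691214 on GRCh38.p14, minus strand, and methylation was not measured in these samples.
PAWR upstream: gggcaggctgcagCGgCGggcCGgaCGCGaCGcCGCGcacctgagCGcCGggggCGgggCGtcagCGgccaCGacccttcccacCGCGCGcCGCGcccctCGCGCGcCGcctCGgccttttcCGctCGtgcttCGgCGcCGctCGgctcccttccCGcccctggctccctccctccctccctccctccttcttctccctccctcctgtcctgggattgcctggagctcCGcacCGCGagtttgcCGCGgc

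Other genes of the pathway were read from a list of 50, which holds further BCL2-like and IAP genes, caspases, nucleases, ligands, receptors and necroptosis genes. Of these, 34 were tested in each table. In HSP90α-KO 18 were higher and 9 lower and 4 were changed, in HSP90β-KO 10 were higher and 2 lower and 0 were changed by limma, with log2 fold changes from -0.31 to 0.35, and in PUHr 11 were higher and 12 lower and 3 were changed. Over all genes, 27.5% were higher and 26.6% lower in HSP90α-KO, 17.2% and 17.2% in HSP90β-KO and 25.6% and 25.8% in PUHr, and 10.3%, 4.48% and 10.1% were changed. PERP, a membrane protein gene linked to p53-dependent death, had 29 to 48 reads per library in HSP90α-KO and 0 to 2 in EV (log2 fold change 3.87, adjusted p = 1.5e-09). It reached the minimum for testing in the 3 HSP90α-KO libraries and in 0 others, so it was tested because of the group in which it was high. TNFRSF21, which encodes death receptor 6, rose in HSP90α-KO by 1.33 (adjusted p = 0.00038, 19 to 29 reads per library against 8 to 13) and in PUHr by 1.93 (adjusted p = 2.3e-09), from a mean of 3.76 ± 0.587 to 14.5 ± 1.03 CPM (SD, n = 3). BCAP31, an endoplasmic reticulum substrate of caspase 8, fell by 1.08 in HSP90α-KO (adjusted p = 3.2e-19). MLKL, the executioner of necroptosis, fell by 2.50 in PUHr (adjusted p = 9.6e-08), from a mean of 3.43 ± 0.365 to 0.543 ± 0.127 CPM (SD, n = 3). MLKL reached the minimum for testing in all 3 parental libraries and in 2 of PUHr. It was thus admitted through the group in which it was high. TP63, a low gene, rose in PUHr by 1.09 (SE 0.299, adjusted p = 0.0069), with 12 to 27 reads per library against 6 to 8.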

How the data were processed

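The authors trimmed and aligned the reads of stranded mRNA libraries to GRCh38 with RNA STAR. Counting used featureCounts and normalization used edgeR, both run through Galaxy, with versions not given in the sources used here. Both tables hold log2 CPM as deposited by the authors, with a small prior count added before the logarithm. CPM values and whole reads were recovered from these values by taking off the shared floor. Entries without an identifier, at most 0.0363% of the reads of a library, were left out. The result of 1 further marker list, whose sum was not lower in PUHr, is not reported here. The headers of the parental libraries spell the solvent DSMO.

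A gene entered the test where 3 or more libraries reached a log2 CPM of -1, which left 17039 genes for the knockouts and 16503 for PUHr. They were fitted in R 4.3.3 by limma 3.58.1 (lmFit and eBayes with an intensity trend, 1 fit per table, two-sided, Benjamini-Hochberg over all genes tested). Since the deposited values are log2 values, limma took the place of the study's count test, and voom on the recovered reads was an alternative. The steps were tested on simulated data. Fold changes are on the deposited log2 scale, which understates those of low genes. Pooled ratios carry exact counting intervals, which cover counting error only. Depth, 19594381 to 26216730 reads on genes, limits the precision of genes with few reads.

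Values in every library are given for members changed in any comparison and for BCL2, BCL2L1, MCL1, BAX, BAK1, BIRC5 and XIAP. Others are given by counts and by at most 2 examples a group with the largest fold, and of the other apoptosis genes the 3 largest among those changed are named; further genes and values were added after they were seen. The members and lists were chosen with earlier results of these data known, and the NF-kB search, the CG count and the search for guide matches were added after seeing the data. Alternatives covered the filter, added constants of 0.1, 1 and 5 CPM, normalization by quantiles or medians, the intensity trend, voom on recovered reads, the libraries in the fit, a replicate block and each library left out. Gene positions, exon lengths and overlaps are from GENCODE v44 on GRCh38.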

Additional observations from a re-analysis of the deposited data

Results flagged for a closer look

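In 5 genes the 2 knockouts both passed the limma test against the shared EV libraries, in opposite directions. Their direct difference, HSP90α-KO minus HSP90β-KO, also passed. PAWR and BIRC3 had direct differences of larger size, -6.95 and -1.87, but did not pass against EV in both knockouts. The log2 difference was 1.85 for BOK (adjusted p = 6.3e-12; the difference was 0.79 with 5 CPM added), 1.46 for CFLAR (adjusted p = 3.2e-22), 0.84 for CASP8 (adjusted p = 1.5e-15), 0.77 for CASP10 (adjusted p = 8.2e-15) and 0.78 for BCL2L12 (adjusted p = 3.3e-14). In BOK, CFLAR, CASP8 and CASP10 all 3 libraries of HSP90α-KO lay above EV and all 3 of HSP90β-KO below it. Most neighbours of these genes on chromosome 2 were lower in HSP90β-KO too. Between the knockouts, the median log2 difference of the nearest genes was 0.623 beside BOK, 0.735 beside CFLAR, 0.758 beside CASP8 and 0.736 beside CASP10. All 20 nearest genes of CFLAR, CASP8 and CASP10 were higher in HSP90α-KO than in HSP90β-KO, as were 15 of the 16 of BOK. For BCL2L12 the libraries stood at 95.1, 92.1 and 85.3 CPM in HSP90α-KO, 55.3, 60.9 and 57.6 CPM in EV and 51.8, 54.3 and 52.4 CPM in HSP90β-KO. The fall of BCL2L12 in HSP90β-KO did not hold without EV replicate 2 (adjusted p = 0.13). CASP10 and BCL2L12 were named after their values were seen.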

How the results depend on the processing

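Of 908 values of 12 named members under the alternatives, 880 kept both direction and side of the threshold. Adding 5 CPM, which by construction shrinks low genes, left 2 changed members in HSP90α-KO (3 in the main analysis), 0 in HSP90β-KO (1), 2 between the knockouts (4) and 1 in PUHr (4), and a minimum mean log2 CPM of 1 left 0 in HSP90β-KO, since BIRC3 was then not tested. With 5 CPM added, PAWR in PUHr stood at 0.99 and BCL2 in PUHr at 0.83. HRK, not changed in HSP90α-KO at -0.94, was changed with voom (-1.01) and without HSP90α-KO replicate 2 (-1.07). Values near 0 changed sign. BIRC5 went from 0.04 to -0.00 in HSP90β-KO and from 0.02 to -0.02 in PUHr with median centring, and BCL2L1 between the knockouts from 0.04 to -0.02 with quantile normalization and -0.03 with voom. With 1 library left out, BIRC3 in HSP90α-KO ran from -0.32 to 0.11 (0.00 without HSP90α-KO replicate 2) and BIRC5 in PUHr from -0.01 to 0.04. The cause of these shifts was not tested. The members that differ ran from 21 to 22 in HSP90α-KO, 14 to 16 in HSP90β-KO, 24 to 28 between the knockouts and 19 to 24 in PUHr with 1 library left out, and those changed from 3 to 4, 1 to 1, 4 to 4 and 4 to 4. Under the other alternatives the members that differ ran from 20 to 24, 13 to 17, 24 to 29 and 17 to 24, lowest in HSP90β-KO without the intensity trend and in PUHr with no filter on low values. Same-numbered libraries did not deviate together (correlations from -0.048 to 0.045, best with their own number in 3 of 9 and 2 of 6 libraries). With the replicate block, 21, 16, 26 and 23 members differed in the same order as above and 3, 1, 4 and 4 were changed. The block brought FADD in PUHr past the threshold (0.44, adjusted p = 0.041) and BCL2L2 in HSP90α-KO (0.051), BCL2L11 in PUHr (0.055) and BIRC2 between the knockouts (0.064) out of it. Depth limits the low genes, among them BIRC3, HRK, BOK, CASP4, DIABLO and BAD, which had at most 142 reads per library in the knockout table, and PAWR in HSP90α-KO.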
